A study of Chlorocebus sabaeus with 6 samples.

Results

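The transcription factors SNAI1, SNAI2, ZEB1, ZEB2, TWIST1 and TWIST2 and the epithelial regulators GRHL2, OVOL1, ESRP1 and ESRP2 were examined as the master regulators of the epithelial-mesenchymal transition (EMT) and of epithelial identity. They were chosen by gene symbol, 10 genes in all, of which 9 had a row among the 18050 genes of the table. GRHL2 was not analysed here. RNA of COS7, a line made from African green monkey kidney by transformation with SV40, was sequenced in 6 libraries. These were 3 of ATL2/3 double-knockout cells (DKO) and 3 of wild-type cells (WT), and the labels give no treatment in either genotype. ATL2 and ATL3 encode atlastins, membrane GTPases through which endoplasmic reticulum tubules fuse. The labels do not say whether the DKO libraries came from 1 clone or several, nor whether libraries of a group came from separate cultures, so the p-values speak only to the spread among these 6 libraries, which may be technical.

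In the EMT, epithelial cells give up cell-cell junctions and apical-basal polarity and take on a migratory, mesenchymal form. SNAI proteins and ZEB proteins are zinc finger factors that bind E-box motifs and repress epithelial genes such as CDH1, and TWIST proteins are basic helix-loop-helix factors that act with E proteins. GRHL2 and OVOL proteins act on the epithelial side, and OVOL and ZEB factors repress each other. ESRP1 and ESRP2 are splicing factors that set the epithelial isoforms of FGFR2, CD44, CTNND1 and ENAH. Kidney epithelium arises by the reverse process, and kidney lines often keep features of both states.

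DKO cells had more SNAI1 and SNAI2 mRNA than WT cells and no detected ESRP1 mRNA. Of the other EMT factors, ZEB1, ZEB2 and TWIST2 were not called, and TWIST1 was at or near 0 counts in both genotypes. OVOL1 and ESRP2 were too low to be tested. A gene was called at an adjusted p below 0.05 in edgeR's quasi-likelihood test over 13094 genes, and 6 of the 9 measured regulators passed the filter on low counts. Of these, SNAI1 and SNAI2 were called higher and ESRP1 lower, in a comparison that called 45.5% of tested genes, 23.3% being higher and 22.2% lower. The fitted log2 fold changes of SNAI1, SNAI2 and ESRP1 were also at least 1 in size, and 21.9% of tested genes were both called and that far changed. SNAI2 stood at this limit, at 1.03 with an SE of 0.11, and at 0.87 to 1.05 in the alternative fits. No test against a 2-fold change was run.

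The libraries held 14197344 to 15693049 estimated counts. ATL2 and ATL3, the targeted genes, were lower in every DKO library, at 21.2% and 13.8% of their WT share of the library. DKO replicate 3 stood apart from the other DKO libraries, and without it the test called 74.6% of genes, 36% as higher and 38.6% as lower. Calls and medians that it moved are given with and without it. The line carried mRNA of both states. VIM, the intermediate filament gene of mesenchymal cells, had 1260 to 1356 FPKM, a level scaled to transcript length and library depth, in DKO and 1511 to 1551 in WT, and KRT8, of simple epithelia, 395 to 544 in DKO and 460 to 540 in WT. KRT18, planned as a marker beside KRT8, had 96.5 to 122 FPKM in DKO and 183 to 195 in WT. It was called lower (log2 fold change -0.78, SE 0.15, edgeR adjusted p = 0.0052). CDH1 and FN1, given below, were also called lower in DKO. The labels name no cell type beyond the line.

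SNAI1, which encodes Snail, the factor first shown to repress CDH1, had 194, 186 and 239 estimated counts in DKO replicates 1, 2 and 3, against 69, 60 and 66 in the WT replicates. These are levels of 8.73, 8.45 and 9.41 FPKM in DKO and 2.94, 2.57 and 2.8 FPKM in WT. All DKO libraries lay above all WT libraries, and the gap was wider than the spread within either group. The mean level was 8.86 ± 0.494 FPKM in DKO and 2.77 ± 0.187 in WT (SD, n = 3 each). Its log2 fold change, 1.73 with an SE of 0.14, was called (edgeR adjusted p = 0.00012). Over 15 alternative fits the log2 fold change of SNAI1 lay between 1.39 and 1.77, and the gene was called in 15 of them.

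SNAI2, which encodes Slug, a related repressor of epithelial genes, had 299, 285 and 293 counts in DKO, against 148, 145 and 155 in WT. Its levels were 11.2, 10.77 and 9.66 FPKM in DKO and 5.26, 5.17 and 5.48 FPKM in WT. The groups did not overlap, and for both SNAI genes DKO lay wholly above WT, as it did for 29.3% of tested genes. The mean was 10.5 ± 0.795 FPKM in DKO and 5.30 ± 0.159 in WT. The log2 fold change of SNAI2 was 1.03 with an SE of 0.11 (edgeR adjusted p = 0.0004) and ranged over 0.87 to 1.05 in the 15 alternatives, all of which called it. SNAI1 changed more than SNAI2: the ratio of SNAI1 to SNAI2 FPKM was 0.78, 0.785 and 0.974 in DKO and 0.559, 0.497 and 0.511 in WT. In an exact two-sided permutation test this ratio gave p = 0.1, the smallest that 3 libraries against 3 allow, as did the levels of SNAI1 and SNAI2 themselves. SNAI3, the remaining member of the family, had 3, 2 and 11 counts in DKO and 12, 3 and 1 in WT, with overlapping groups, and was not tested.

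ZEB1, a zinc finger and homeodomain repressor of CDH1 and of the miR-200 genes, had 702, 636 and 416 counts in DKO, against 821, 771 and 847 in WT. Its levels were 9.4, 8.57 and 4.98 FPKM in DKO and 10.42, 9.86 and 10.7 FPKM in WT. All DKO libraries lay below all WT libraries, as they did for 34% of the tested genes, but DKO replicate 3 lay far below the other DKO libraries, at 56.4% of their mean counts per library total. ZEB1 had a log2 fold change of -0.40, with an SE of 0.21 (edgeR adjusted p = 0.16). Without DKO replicate 3 it was -0.20 and called (edgeR adjusted p = 0.0072), so the difference was smaller and its error smaller still.

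ZEB2, the paralog of ZEB1, had 354, 351 and 267 counts in DKO and 321, 316 and 330 in WT, or 4.43, 4.41 and 2.99 FPKM in DKO and 3.81, 3.78 and 3.89 FPKM in WT. DKO replicates 1 and 2 lay above the WT libraries and DKO replicate 3 below them. The log2 fold change of ZEB2 with all libraries was 0.08, with an SE of 0.16 (edgeR adjusted p = 0.72), and 0.21 (edgeR adjusted p = 0.019) without DKO replicate 3. Its sign turned without DKO replicate 1 or 2, at -0.01 in either fit.

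TWIST2 had 181, 141 and 117 counts in DKO and 131, 127 and 123 in WT, or 10.34, 8.12 and 5.86 FPKM in DKO and 7.06, 6.89 and 6.63 FPKM in WT. The DKO libraries lay on both sides of the WT libraries and spread more widely. TWIST2 had a log2 fold change of 0.27 with an SE of 0.19 (edgeR adjusted p = 0.28), and 0.43 (edgeR adjusted p = 0.0022) without DKO replicate 3, in which TWIST2 stood at 66% of the mean of the other DKO libraries. TWIST1 had 0 counts in every DKO library and 1 count in WT, in replicate 1, so no fold is given. TWIST2 therefore held all but 1 of the TWIST counts in these libraries.

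**Figure D1:**
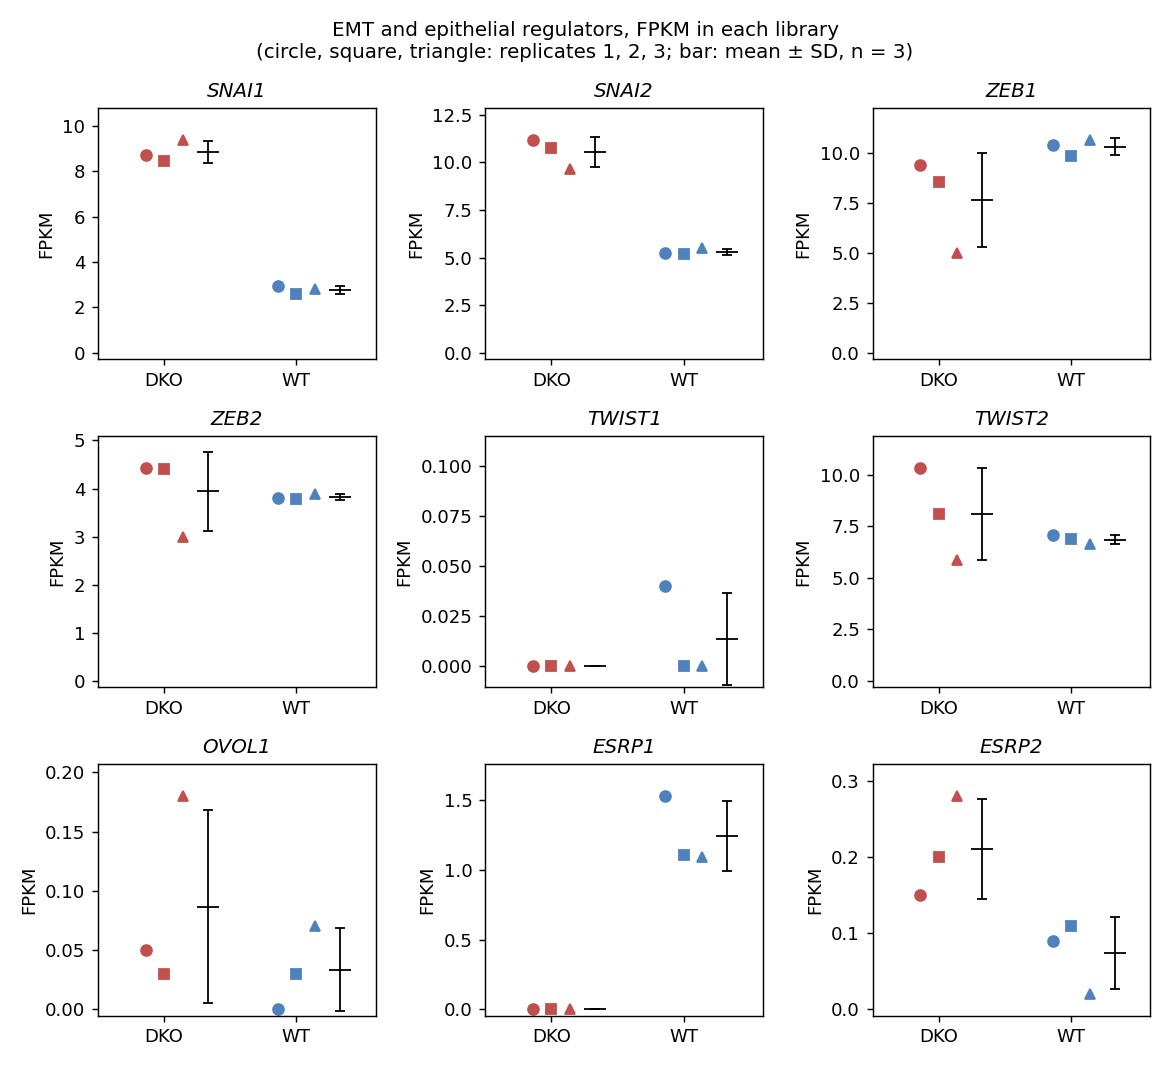
FPKM of the 9 measured regulators in each DKO and WT library, on a linear axis of its own for each gene, with the mean and SD beside the points (n = 3). SNAI1 and SNAI2 are higher in all DKO libraries, and ESRP1 is at 0 in all of them. DKO replicate 3 (triangle) lies lowest of the DKO libraries for SNAI2, ZEB1, ZEB2 and TWIST2.

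Without DKO replicate 3, all 5 tested EMT factors were called, SNAI1, SNAI2, ZEB2 and TWIST2 higher and ZEB1 lower, where 74.6% of all genes were called. In that fit the log2 fold change of SNAI1 was 1.63 and that of SNAI2 1.05. In DKO replicate 3, counts per library total were 114% of the mean of DKO replicates 1 and 2 for SNAI1, 91.1% for SNAI2 and 68.7% for ZEB2. What sets this library apart was not tested.

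**Figure D2:**
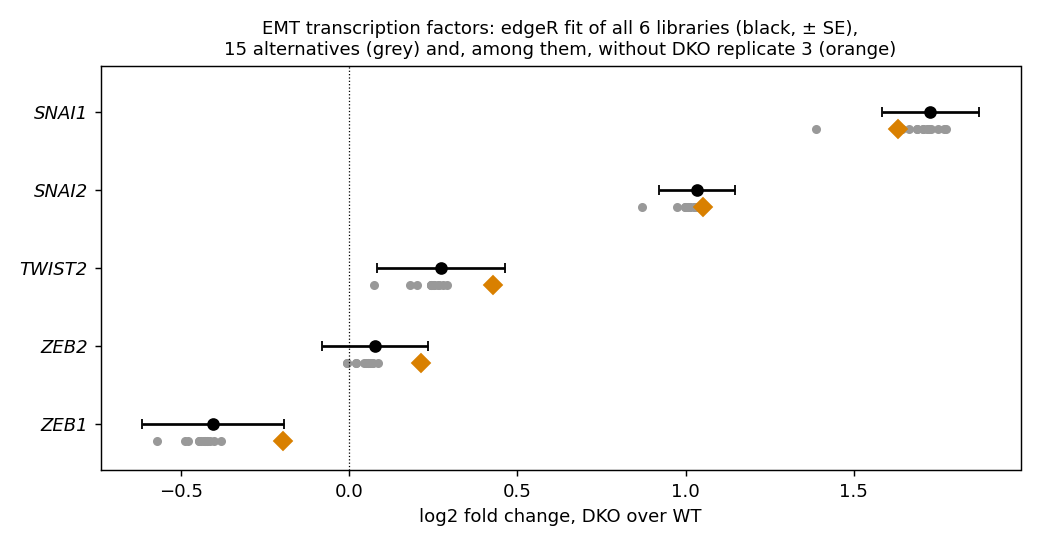
Log2 fold change, DKO over WT, of the 5 tested EMT factors, in the fit of all 6 libraries (black, with its SE), in 15 alternative fits (grey) and, among these, in the fit without DKO replicate 3 (orange). SNAI1 and SNAI2 lie right of 0 in all fits, whereas ZEB2 moves from -0.01 to 0.21 and ZEB1 is nearest 0 without DKO replicate 3.

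The order of levels among the EMT factors differed between the genotypes. By mean FPKM in DKO, SNAI2 was highest at 10.5, followed by SNAI1 at 8.86, TWIST2 at 8.11, ZEB1 at 7.65 and ZEB2 at 3.94. The place of SNAI1 in this order rested on DKO replicate 3. In DKO replicate 1, TWIST2 (10.34 FPKM) and ZEB1 (9.4) lay above SNAI1 (8.73). In DKO replicate 2, ZEB1 (8.57 FPKM) lay above SNAI1 (8.45). The ranges of SNAI1 and TWIST2 overlapped, as did those of TWIST2 and ZEB1. SNAI2 stood apart from SNAI1, but its range (9.66 to 11.2 FPKM) overlapped that of TWIST2 (5.86 to 10.34). ZEB2 lay below all of these ranges. In WT, ZEB1 was highest at 10.3 FPKM, followed by TWIST2 at 6.86, SNAI2 at 5.30, ZEB2 at 3.83 and SNAI1 at 2.77, with no overlap between neighbours. The SNAI genes together made up 45.2, 47.7 and 58% of the summed FPKM of the 6 EMT factors in DKO and 27.8, 27.4 and 28.1% in WT. The ZEB genes made up 31.4, 32.2 and 24.2% in DKO and 48.2, 48.3 and 49.5% in WT. The sum itself was 44.1, 40.3 and 32.9 FPKM in DKO and 29.5, 28.3 and 29.5 FPKM in WT. Each of these 3 measures separated the genotypes without overlap, with p = 0.1 in the exact two-sided permutation test. They are not independent, as both shares are taken of the same sum. The summed FPKM of the ZEB genes overlapped between genotypes, at 13.83, 12.98 and 7.97 in DKO and 14.23, 13.64 and 14.59 in WT. The lower ZEB share thus does not by itself show less ZEB mRNA. In counts per library total, 63.3% of tested genes had groups without overlap.

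**Figure D3:**
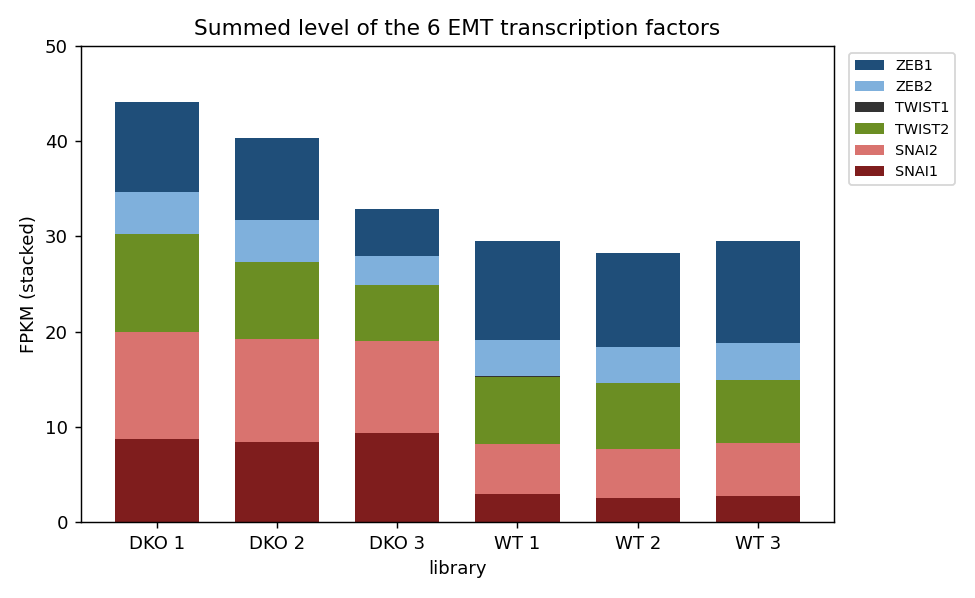
Stacked FPKM of the EMT transcription factors in each DKO and WT library. The SNAI genes (red shades) sum to 19.1 to 19.9 FPKM in DKO, against 7.74 to 8.28 in WT, and the ZEB genes (blue shades) hold 7.97 to 13.8 FPKM in DKO and 13.6 to 14.6 in WT.

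Among the epithelial regulators, ESRP1 was the only one of the 3 measured that passed the filter on low counts. It had 0 counts in each DKO library, against 79, 58 and 59 in the WT libraries, where its level was 1.53, 1.11 and 1.09 FPKM. Against a floor of 3 counts per library, ESRP1 was at least 21.3-fold lower in DKO (edgeR adjusted p = 0.00022, called in 15 of 15 alternatives). The fitted log2 fold change of -9.0 follows the WT count and is no estimate of the size. ESRP2, its paralog with overlapping targets, had 9, 12 and 18 counts in DKO and 6, 7 and 1 in WT, or 0.15, 0.2 and 0.28 FPKM in DKO and 0.09, 0.11 and 0.02 FPKM in WT. All DKO libraries were higher, with a ratio of the summed counts of 2.84 (exact 95% counting interval 1.51 to 5.66), but ESRP2 was below the filter. Tested without the filter, ESRP2 gave 1.48 on the log2 scale, with an SE of 0.52 (edgeR adjusted p = 0.062). The ESRP genes together had 0.15, 0.2 and 0.28 FPKM in DKO and 1.62, 1.22 and 1.11 FPKM in WT, so in DKO all ESRP mRNA detected was that of ESRP2, at a level below that of ESRP1 in WT.

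OVOL1, a zinc finger repressor of ZEB1 and of mesenchymal genes, had 2, 1 and 5 counts in DKO and 0, 1 and 3 in WT. Its groups overlapped, and the ratio of summed counts, 2.04 (exact 95% counting interval 0.55 to 9.26), leaves its direction undetermined at this depth. Its paralog OVOL2 had 0 counts in every DKO library and 9, 2 and 4 in WT, at least 1.63-fold lower, and was below the filter. Tested without the filter, OVOL2 was called lower (edgeR adjusted p = 0.036). That fit called 3062 genes higher and 3275 lower of 17786. OVOL3 had 5 counts over the DKO libraries and 5 over the WT libraries. Of the relatives of GRHL2, GRHL1 had 2.84 ± 0.157 FPKM in DKO and 2.65 ± 0.353 in WT (log2 fold change 0.14, SE 0.14, edgeR adjusted p = 0.46). GRHL3 had 0.41, 0.33 and 0.37 FPKM in DKO and 0.16, 0.06 and 0.11 FPKM in WT and was called higher (1.76, SE 0.31, edgeR adjusted p = 0.0035), on 69 counts in DKO and 21 in WT.

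Other factors of the same roles went both ways. Of 16 tested EMT transcription factors outside the 10 regulators, 3 were higher, 8 lower and 5 not called (3 and 11 without DKO replicate 3). These calls made up 68.8% of the list, against 45.5% over all genes, and its median log2 fold change was -0.53, against -0.01 over all genes. Without DKO replicate 3 the share called was 87.5%, against 74.6% over all genes, and the median was -0.34, against -0.03 over all genes. FOXC2, a forkhead factor of mesenchymal cells, had 20.7 ± 2.94 FPKM in DKO and 1.26 ± 0.0611 in WT (4.07, SE 0.15, edgeR adjusted p = 5.6e-06). GSC, the homeobox factor goosecoid, had 55, 48 and 76 counts in DKO and 1 count in WT, in replicate 3, a ratio of 183 (exact 95% counting interval 32.4 to 7250), and its fitted log2 fold change moved to 8.92 without WT replicate 3, against 7.08 with it. SOX4 (-2.49, SE 0.19), SOX9 (-3.38, SE 0.23), RUNX2 (-2.83, SE 0.25) and KLF8 (-4.62, SE 0.40) fell, with edgeR adjusted p-values from 5.0e-05 to 0.00015. KLF8 had 1 count in each DKO library and 25, 24 and 37 in WT. Its ratio was 28.1-fold lower in DKO (exact 95% counting interval 9.3 to 139). SOX9 had 4, 3 and 4 counts in DKO (counting interval 5.92- to 22.5-fold lower). Of 13 tested epithelial transcription factors outside the regulators, 3 were higher, 8 lower and 2 not called (5 and 8 of 14 without DKO replicate 3). That was 84.6% of the list, against 45.5% over all genes, and 92.9%, against 74.6%, without DKO replicate 3. The median of the list was -0.82 with all libraries and -0.63 without DKO replicate 3. ELF3, an ETS factor of epithelia, had 0, 2 and 1 counts in DKO and 86, 101 and 63 in WT, a ratio 81.7-fold lower in DKO (exact 95% counting interval 27.6 to 399), with a fitted log2 fold change of -7.03 without DKO replicate 2, against -6.15 with it. KLF5 (-2.11, SE 0.17) and the kidney epithelial factor PAX8 (-1.37, SE 0.12) fell, while KLF4 rose (1.27, SE 0.17, edgeR adjusted p = 0.0011).

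CDH1, the E-cadherin gene that SNAI and ZEB factors repress, had 7, 5 and 7 counts in DKO, against 345, 354 and 349 in WT. This is 0.0867 ± 0.0153 FPKM in DKO and 4.84 ± 0.0814 in WT (log2 fold change -5.69, SE 0.17, edgeR adjusted p = 4.4e-06). Of 27 tested epithelial genes known as targets of GRHL2, OVOL, SNAI or ZEB factors, 9 were called higher, 12 lower and 6 in neither direction (9 and 14 without DKO replicate 3). The share called was 77.8%, against 45.5% over all genes, and 85.2%, against 74.6%, without DKO replicate 3. The median was -0.15 with all libraries and -0.41 without DKO replicate 3. The claudin gene CLDN4 had 0.823 ± 0.136 FPKM in DKO and 48.2 ± 3.13 in WT (-5.82, SE 0.18), the polarity gene CRB3 0.737 ± 0.0802 in DKO and 5.62 ± 0.571 in WT (-2.86, SE 0.18), and the desmosomal gene DSP 1 count in DKO, in replicate 3, and 18097 in WT. The mucin gene MUC1 (2.47, SE 0.16) and the junction protein gene F11R (1.72, SE 0.14) rose. EPCAM, an epithelial adhesion gene named here among the kidney tubule markers, also rose, to 35.78, 38.56 and 21.72 FPKM in DKO, against 13.49, 11.87 and 13.47 FPKM in WT (1.34, SE 0.20, edgeR adjusted p = 0.0016). KRT8 (-0.10, SE 0.18) and SPINT2 (-0.15, SE 0.20) were not called, and both were called lower without DKO replicate 3 (-0.33 and -0.41).

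Of 32 tested mesenchymal genes, 10 were called higher, 14 lower and 8 in neither direction (12 and 18 without DKO replicate 3). The share called was 75%, against 45.5% over all genes, and 93.8%, against 74.6%, without DKO replicate 3. The median was -0.12, but -0.20 without DKO replicate 3. FN1, the fibronectin gene, had 190.06, 200.31 and 231.9 FPKM in DKO, against 1897.15, 1832.12 and 1783.44 FPKM in WT (-3.10, SE 0.12, edgeR adjusted p = 6.5e-06). COL5A2 (-4.81, SE 0.11), ITGB3 (-4.35, SE 0.16) and THBS1 (-2.26, SE 0.11) fell as well. LOX, which crosslinks collagen, had 348 ± 90.7 FPKM in DKO and 14.9 ± 0.841 in WT (4.58, SE 0.20), and CCN2 also rose (1.77, SE 0.08). CDH2, the N-cadherin gene, had 189.82, 204.4 and 125.01 FPKM in DKO and 185.43, 179.6 and 194.18 FPKM in WT (-0.08, SE 0.16), and VIM gave -0.17 (SE 0.07, edgeR adjusted p = 0.079). Without DKO replicate 3, CDH2 was called higher (0.09) and VIM lower (-0.18). Both lists thus held calls in both directions beside the higher SNAI1 and SNAI2.

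**Figure D4:**
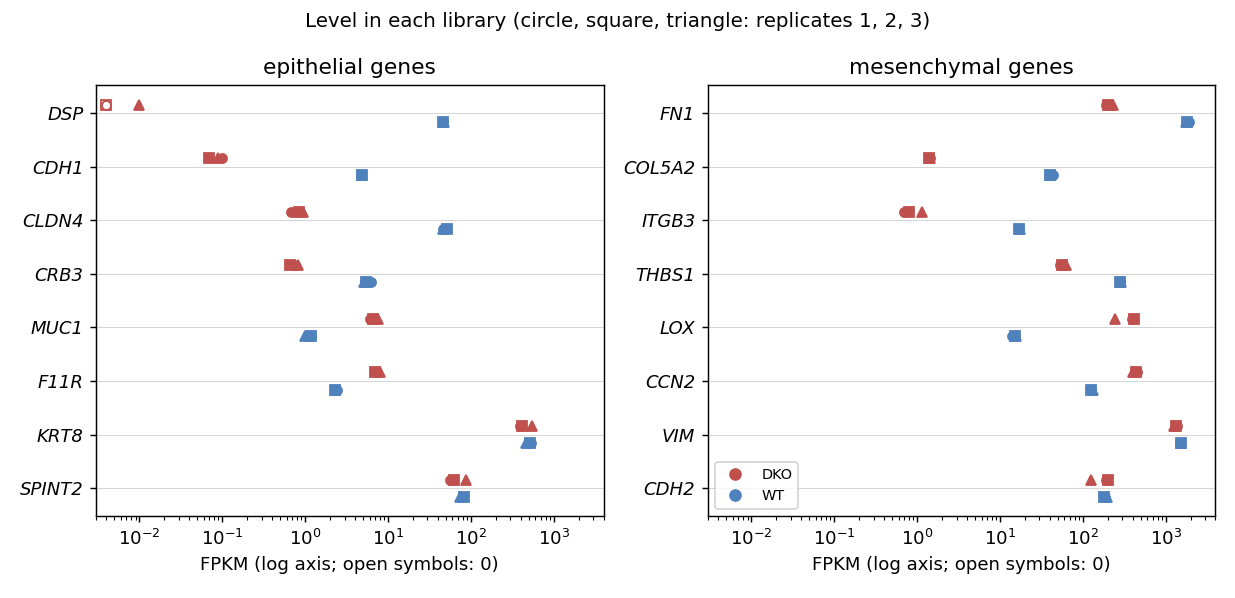
FPKM of 8 epithelial and 8 mesenchymal genes in each DKO and WT library, on a log axis, with libraries at 0 drawn as open symbols at the left. CDH1, CLDN4, CRB3 and DSP are lower in DKO, MUC1 and F11R higher, and in the mesenchymal panel FN1, COL5A2, ITGB3 and THBS1 are lower and LOX and CCN2 higher.

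Splicing factors and their targets were set beside ESRP1. Of 17 tested splicing regulators of the EMT, 2 were higher, 4 lower and 11 not called (7 and 9 without DKO replicate 3). This was 35.3% of the list, below the 45.5% called over all genes. Without DKO replicate 3 the share was 94.1%, above the 74.6% over all genes. The median was -0.11 (-0.14 without DKO replicate 3). RBM47, an RNA-binding protein of epithelia, fell (-2.16, SE 0.22, edgeR adjusted p = 0.00028), and MBNL3, a muscleblind factor, had 0 counts in DKO and 978 in WT, at least 106-fold lower. RBFOX3 rose to 6.88 ± 0.216 FPKM in DKO, against 1.08 ± 0.0964 in WT (2.73, SE 0.13). Of 23 genes with exons controlled by ESRP proteins, 4 were higher, 4 lower and 15 not called (6 and 11 without DKO replicate 3, and 5 called in all without any 1 of the WT libraries). The share called was 34.8%, again below that over all genes, and without DKO replicate 3 it was 73.9%, against 74.6% over all genes. The median was -0.16 with all libraries and -0.08 without that one. FGFR2 (2.35, SE 0.17), FGFR1 (1.39, SE 0.11) and CD44 (1.02, SE 0.11) rose and ENAH fell (-1.28, SE 0.21). The table holds 1 value per gene, so which exons these mRNAs carried was not analysed here.

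Partners and signals of the EMT factors were read against the same background. Of 28 tested cofactors, partners and turnover genes, 4 were called higher, 9 lower and 15 in neither direction (6 and 16 without DKO replicate 3, and 8 called in all without WT replicate 3). The share called, 46.4%, was near the 45.5% over all genes, and was 78.6%, against 74.6%, without DKO replicate 3. The median was -0.25, but -0.15 without DKO replicate 3. AJUBA, a corepressor of SNAI1, fell to 22.8 ± 1.1 FPKM in DKO, against 46.1 ± 0.594 in WT (-0.97, SE 0.09). ID1 (-1.15, SE 0.11) and ID3 (-1.47, SE 0.13), inhibitors of the E proteins that pair with TWIST factors, fell, and so did SIN3A (-0.65, SE 0.09), KDM1A (-0.37, SE 0.08) and FBXO45 (-0.93, SE 0.21), which encodes a ubiquitin ligase subunit acting on EMT factors. HDAC1, a SNAI corepressor subunit, was not called (0.01, SE 0.09). HDAC2, the other deacetylase of that complex, chosen after its values were seen, had 163.3, 166.11 and 79.63 FPKM in DKO and 65.48, 60.77 and 67.11 FPKM in WT and rose (1.11, SE 0.25, edgeR adjusted p = 0.0092). Of 32 tested upstream signals, 7 were higher, 12 lower and 13 not called (9 and 19 without DKO replicate 3). The share called was 59.4%, against 45.5% over all genes, and 87.5%, against 74.6%, without DKO replicate 3. The median was -0.24 (-0.29 without that library). EGFR (3.41, SE 0.09), BMP7 (3.39, SE 0.15) and YAP1 (3.10, SE 0.15) rose, and the TGF-beta pathway genes SMAD4 (-1.56, SE 0.13) and SMAD7 (-1.80, SE 0.12) and the Notch target HEY1 (-2.44, SE 0.13) fell. TGFB1, whose product induces SNAI1 in many epithelia, had 90.4 ± 6.3 FPKM in DKO and 101 ± 4.88 in WT (-0.11, SE 0.11), and was called lower without DKO replicate 3 (-0.21).

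**Figure D5:**
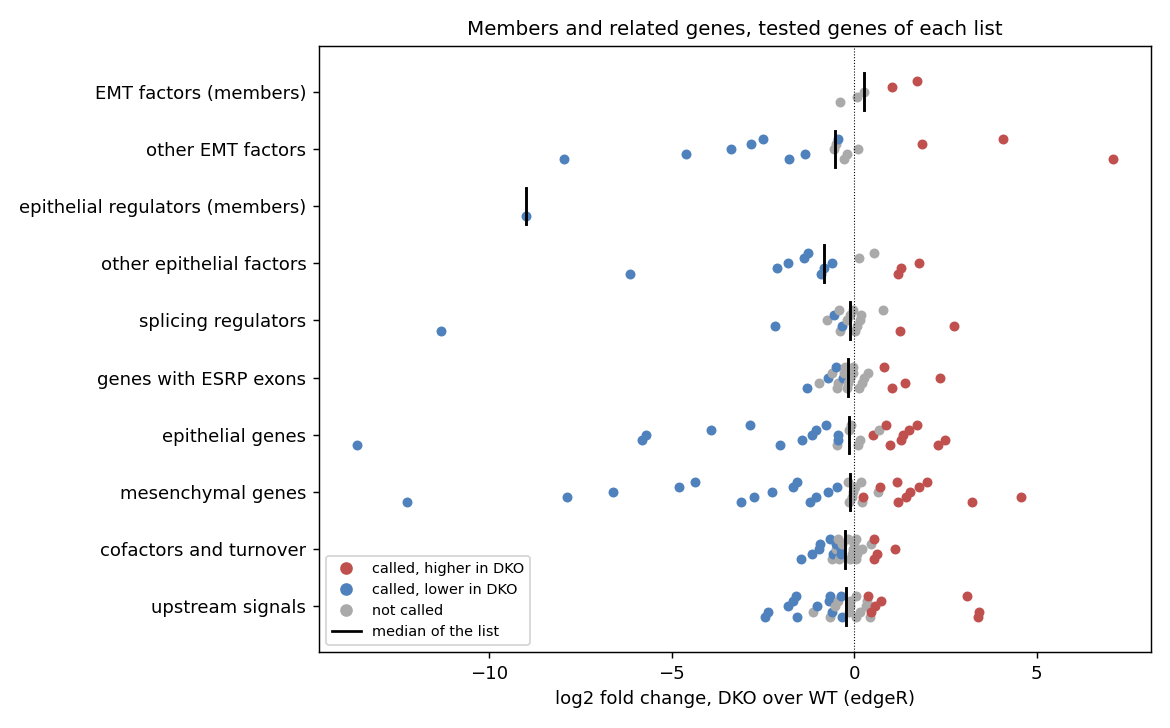
Log2 fold change, DKO over WT, of each tested gene in the EMT and epithelial lists, coloured by call, with the median of each list as a black line. Every list with more than 5 tested genes holds calls in both directions, and the points farthest left are genes at or near 0 counts in DKO, whose fitted values are not sizes.

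Position and profile were compared for the called regulators. Neighbours were taken among the genes of the deposited table that have a place in the RefSeq table of assembly mChlSab1.0.hap1. Those nearest to SNAI1 were UBE2V1 (log2 fold change -0.02) and RNF114 (0.18), and neither was called. Beside SNAI2, UBE2V2 (-0.24) was not called and SNTG1 was too low to test. ESRP1 lies between VIRMA (-0.46, edgeR adjusted p = 0.041) and DPY19L4 (-0.45, edgeR adjusted p = 0.43), which had 16.4 and 11.3 FPKM in DKO and 23.1 and 15.7 FPKM in WT, so the neighbours of ESRP1 were still expressed in DKO. The genes whose centred log2 CPM (counts per library total) profile over the 6 libraries was nearest that of SNAI1 were MAP6D1, HDDC2 and F11R, with root mean square differences of 0.0207, 0.0404 and 0.0422. For SNAI2 they were IARS (0.0135), CDK5RAP2 (0.0269) and TRIM44 (0.0292), and for ESRP1 HNMT (0.093), CDH8 (0.101) and RIC3 (0.101), which were likewise at 0 FPKM in DKO. With 2 genotypes, such likeness rests mainly on the size of 1 difference.

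Markers of other cell types were read beside these results. The summed FPKM of 8 measured endothelial markers was 17.6 to 19.1 in DKO and 1.83 to 2.26 in WT. Most of it in DKO was TEK, at 15.1 FPKM, with KDR and ERG at 6 counts or fewer over all libraries. Of 4 tested endothelial markers, TEK, SOX18 and VWF were called higher. SOX17 was not called (-0.77, edgeR adjusted p = 0.065), but was called lower without DKO replicate 3 (-0.87). The 9 measured kidney tubule markers summed to 65.1 to 75.7 FPKM in DKO and 119.5 to 121.2 in WT. PAX8 alone had 28.3 ± 2.68 FPKM in DKO and 76.3 ± 0.807 in WT. Of 5 tested tubule markers, 4 were called lower and 1, EPCAM, higher. The 9 measured fibroblast markers summed to 1293 to 1390 FPKM in DKO and 1554 to 1595 in WT. VIM made up most of the fibroblast sum. In that list PDGFRA rose to 16.8 ± 2.65 FPKM in DKO, against 0.257 ± 0.0503 in WT (6.10, SE 0.20), and PDGFRB to 5.35 ± 0.743 in DKO, against 0.587 ± 0.0513 in WT (3.23, SE 0.18), while COL1A1 (-2.75, SE 0.20) and S100A4 (-1.56, SE 0.19) fell. Of the tubule and fibroblast markers, LRP2, SLC34A1, COL1A2, THY1 and DCN were at 6 counts or fewer. Of 7 measured blood markers, CD14 and CD3E were at 6 counts or fewer, and the sum was 23.9 to 36.9 FPKM in DKO and 21 to 23.7 in WT. In bulk RNA, fewer cells of a type and less RNA per cell cannot be told apart, and the part of these markers in the results above was not tested.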

How the data were processed

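RNA-seq libraries of COS7 cells, 3 DKO and 3 WT, were compared. Groups and replicate numbers came from the sample titles. Per the file headers, the table deposited by the authors holds estimated counts per gene, of which 5.8 to 6.54% per library were not whole, and FPKM values, which scale the counts to transcript length and library depth. The submitters' processing notes list HISAT and Bowtie2, without versions. The genome build was not given in the sources used here, nor was the counter. The 9 columns of 3 other samples were not used.

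After rounding the estimated counts to whole numbers, genes were tested in edgeR 4.0.16 under R 4.3.3 (quasi-likelihood test, TMM normalization, filter by group with a minimum count of 10), with Benjamini-Hochberg adjustment over 13094 genes. Fold changes are DKO over WT. SE was taken as the absolute log2 fold change over the square root of F, and can understate counting error near 0 counts. A group at 0 counts gives a bound, set at 3 counts per library. Ratios of summed counts carry exact 95% Clopper-Pearson-based intervals, which cover counting error only. Reads divided among paralogs make counts of close relatives uncertain. Permutation tests were exact and two-sided on FPKM.

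Alternatives were leaving out each library, a block for replicate number, testing without the filter, other scalings, DESeq2 1.42.0, limma 3.58.1 on voom values and on log2(FPKM + 1) or log2(FPKM + 0.1), a 2-fold limit, and a correlation for likeness. The fits were also run on simulated counts, with far fewer changed genes than were called here and no library set apart. No result given here rests on that run. The regulators, lists and rules were chosen with earlier results of these data known. From each list up to 6 called genes of smallest adjusted p and up to 3 uncalled genes of highest level could be named, with the regulators, their family members, the targeted genes and 3 most alike genes per called regulator. Of the gene IDs, 16730 (92.7%) matched the RefSeq table, used for neighbours only.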

Additional observations from a re-analysis of the deposited data

How the results depend on the processing

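SNAI1, SNAI2 and ESRP1 kept direction and call in all 15 alternatives. Without DKO replicate 3, regulators called higher numbered 4 and lower 2, the counts over all genes became 4770 higher and 5110 lower, and calls came to 16 of the splicing regulators, 22 of the cofactors and 17 of the genes with ESRP-controlled exons. The cause was not tested. Over the fits that leave out 1 library, regulators called ranged from 2 to 4 higher and from 1 to 2 lower, and the lists as in the ranges that follow: 10 to 14 of the other EMT factors, 11 to 13 of the other epithelial factors, 5 to 16 of the splicing regulators, 8 to 22 of the cofactors, 18 to 23 of the epithelial genes, 21 to 30 of the mesenchymal genes, 5 to 17 of the genes with ESRP-controlled exons and 14 to 28 of the upstream signals, with 2105 to 4770 genes higher and 2146 to 5110 lower. On the log2 scale ZEB2 gave -0.0074 without DKO replicate 1 and -0.0056 without DKO replicate 2, neither called, and reached 0.21 without DKO replicate 3. Under a 2-fold limit, 1287 genes were higher and 1585 lower. Deviations of same-numbered libraries correlated at 0.022, -0.284 and -0.290, and not every library correlated best with its own number. DKO replicates 1 and 2 correlated almost alike with each WT library, so this cannot settle whether the replicate numbers pair the libraries. With the replicate number as a block, 2220 genes were higher and 2265 lower, 7 cofactors were called, and SNAI1 (1.72), SNAI2 (1.03) and ESRP1 (-9.0) remained called. By correlation in place of the root mean square difference, 1 of 3 most alike genes was shared for SNAI1, 1 for SNAI2 and 0 for ESRP1. The depth sets the limit for TWIST1, OVOL1 and ESRP2.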
